A study of Homo sapiens with 24 samples.

Results

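The aldehyde dehydrogenases outside the retinoid-forming branch were followed here as 10 genes: ALDH2, ALDH1B1, ALDH3A1, ALDH3A2, ALDH3B1, ALDH3B2, ALDH4A1, ALDH6A1, ALDH7A1 and ALDH9A1. They were chosen by name, with earlier results of these data known, and are 10 of the 60617 genes in the count table and 10 of the 19 aldehyde dehydrogenase genes looked up in it. All 10 passed the filter on low counts and were among the 15476 genes tested. RNA was sequenced from 686Tu cells (MDA686TU in the labels), an established line of human head and neck squamous cell carcinoma. There were 4 groups of 6 libraries: cells with no treatment (NT), cells with EGCG at 40 µM, cells with resveratrol at 15 µM, and cells with both agents at these doses (the combination), each for 24 h. All groups grew in the same medium with serum. Resveratrol, a stilbene of grapes, came from a DMSO stock, and EGCG, the main catechin of green tea, was dissolved in water. The sources used here do not state whether NT cells received DMSO, so resveratrol and its solvent cannot be told apart. The labels number the replicates without saying that they were separate cultures, so the p-values measure the spread between these libraries, which may be technical.

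Aldehyde dehydrogenases use NAD+ or NADP+ to oxidize reactive aldehydes to carboxylic acids, or to acyl-CoA in the case of ALDH6A1. The enzymes described here clear acetaldehyde and products of lipid peroxidation, act in the breakdown of proline, valine and lysine, make a precursor of carnitine, and oxidize fatty aldehydes. The retinoid branch, ALDH1A1 to ALDH1A3, instead makes retinoic acid and is known as a stem cell marker in squamous carcinoma.

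The libraries held 7034872 to 11735574 counts, and the biological coefficient of variation was 5.32%. All 8 markers of squamous epithelium were present, with a summed normalized count of 140694 to 159242 in NT and EGCG libraries and 118774 to 128766 in resveratrol and combination libraries. The keratins KRT5, KRT14, KRT17 and KRT6A carried this sum and its fall, KRT5 with means of 45967 in NT and 35507 with the combination. The other markers had higher means with the combination than in NT. These were 4799.6 against 3562 for CDH1, 1598 against 1181 for DSG3, 3722 against 3506 for TP63 and 1973 against 1909 for EPCAM. Leukocyte markers summed to at most 9.64, hepatocyte markers to at most 3.23 and endothelial markers to at most 19.9. The fibroblast markers summed to 889 to 1345 without resveratrol and 1310.4 to 1745 with it, and 3 of these 5 genes had means under 10 in every group. Nearly all of this sum was COL1A1, with means of 1182 in NT and 1649.6 with the combination, where COL1A2 had 19.5 and 23.0. The part of these shifts in the results was not tested. The mitochondrial share was 0.249% to 0.326% in the first 3 replicates of the groups, and it was 0.448% to 0.775% in the last 3. Combination replicate 3 was the highest or lowest library of its group, with a gap to the next library of over 0.625 of the group's range, for 4.33% of tested genes, against 0.459% to 1.31% in the other 23 libraries. In bulk RNA, fewer cells that express a gene and less of its RNA per cell cannot be told apart.

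With resveratrol 6 of the 10 genes were called higher and 1 lower, and with EGCG alone 0 of 10 were called. A gene was called when its Benjamini-Hochberg adjusted p over all tested genes was under 0.1 and its p under 0.05 in edgeR's quasi-likelihood test. With resveratrol against NT, ALDH2, ALDH3A2, ALDH3B1, ALDH4A1, ALDH6A1 and ALDH7A1 rose and ALDH1B1 fell, 7 of 10 where 56.9% of all tested genes were called (28.9% higher and 28.0% lower). For all 7 the resveratrol libraries did not overlap with the NT libraries, as for 31.0% of all tested genes. With the combination against NT, ALDH2, ALDH3B1, ALDH4A1, ALDH6A1 and ALDH7A1 rose and ALDH1B1 and ALDH3B2 fell, 7 of 10 where 59.8% of all tested genes were called (29.9% higher and 29.9% lower). Here 5 of the 10 had groups that did not overlap, against 31.9% of all tested genes. The shares called lie near the background of the experiment, so the number of calls does not set these genes apart. Without combination replicate 3 the combination again called 7 of 10, and resveratrol called 8, with ALDH3A1 added as lower.

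With EGCG against NT the background was 1.76%, and 0 members were called by edgeR, 0 had an unadjusted p under 0.05, and DESeq2 called 0. The combination against EGCG called 7 of 10, 5 higher and 2 lower, with a background of 57.8% (28.7% higher and 29.1% lower), and 6 of 10 did not overlap, against 27.5% of all tested genes. The combination against resveratrol called 1 of 10, ALDH3A2, with a background of 7.86%, and this was also the only member without overlap, as in 3.20% of all tested genes. The interaction, which asks whether the log2 changes of both agents add up, called 0 of 10 against a background of 0.265%. In that test edgeR gave an unadjusted p under 0.05 for 2 members, and DESeq2 called 0 and gave such a p for 1.

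**Figure D1:**
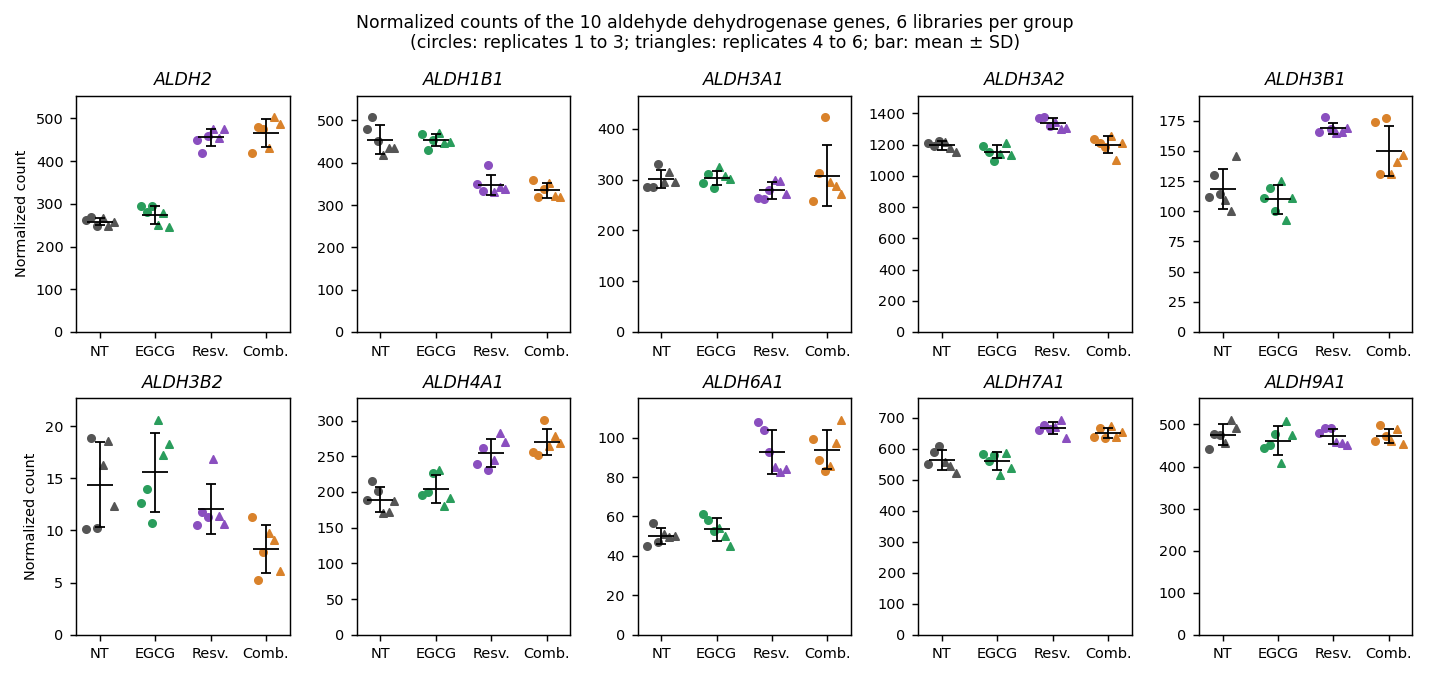
Normalized count of each of the 10 genes (vertical axes, each starting at 0) in every library of the 4 groups (horizontal axis), with circles for replicates 1 to 3, triangles for replicates 4 to 6 and bars for mean ± SD of 6 libraries. ALDH2 and ALDH6A1 libraries with resveratrol or the combination all lie above those without resveratrol, and ALDH1B1 libraries lie below.

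Promoter windows were available for 7 of the 10 genes, as 10 windows of 300 bases, 250 before and 50 after a start site (RefSeq, GRCh38.p14). Those of ALDH6A1, the gene with the highest fold, of ALDH1B1, the gene that fell with both resveratrol treatments, and of ALDH3A2, the gene that differed between them, are shown 5′ to 3′ on the gene's strand. ALDH2, ALDH3A1 and ALDH3B2 had no entry. Capitals mark matches, on either strand, to the CCAAT box (CCAAT, which reads ATTGG when it lies on the other strand) and to the core of the aryl hydrocarbon receptor element (GCGTG). The core of the antioxidant response element (TGACNNNGC) and the C/EBP-ATF element (TGATGNAA) were also searched on both strands, and no overlaps between the motifs were met in these windows.
ALDH6A1 (chr14:74084404-74084703, minus strand): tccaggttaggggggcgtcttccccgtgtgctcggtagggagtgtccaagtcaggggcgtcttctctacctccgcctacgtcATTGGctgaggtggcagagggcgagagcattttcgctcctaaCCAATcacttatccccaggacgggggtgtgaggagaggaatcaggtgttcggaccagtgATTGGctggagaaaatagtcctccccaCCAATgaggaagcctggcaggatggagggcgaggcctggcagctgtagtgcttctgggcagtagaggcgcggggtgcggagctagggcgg
ALDH1B1 (chr9:38392452-38392751, plus strand): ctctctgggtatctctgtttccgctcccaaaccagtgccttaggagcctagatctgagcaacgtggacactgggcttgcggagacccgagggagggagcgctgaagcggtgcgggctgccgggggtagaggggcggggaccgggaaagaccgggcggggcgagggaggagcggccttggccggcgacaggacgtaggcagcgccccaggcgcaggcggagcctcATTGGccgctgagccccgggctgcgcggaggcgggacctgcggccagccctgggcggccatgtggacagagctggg
ALDH3A2, the second start site (chr17:19648501-19648800, plus strand): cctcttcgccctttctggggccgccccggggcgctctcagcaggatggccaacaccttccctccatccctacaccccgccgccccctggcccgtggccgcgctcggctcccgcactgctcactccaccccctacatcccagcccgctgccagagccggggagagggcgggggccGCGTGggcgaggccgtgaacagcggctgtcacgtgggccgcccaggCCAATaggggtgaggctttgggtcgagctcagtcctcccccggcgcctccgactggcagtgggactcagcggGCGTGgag

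The ALDH6A1 window held 4 CCAAT matches, which began at positions -168, -126, -67 and -40 from the start site, on alternating strands. Of all 35116 promoter windows of this length, 34.6% held at least 1 CCAAT match and 0.991% held 4 or more. The ALDH1B1 window held 1, at -26, and the ALDH7A1 window held 1, at -63. At the second ALDH3A2 start site there was 1 CCAAT match at -30 and there were 2 GCGTG matches, at -76 and 43, a motif that 36.5% of all windows held. The other windows of these genes held none of the 4 motifs, and no window of the 7 genes held TGACNNNGC (13.3% of all windows) or TGATGNAA (3.62%). A match of so few letters describes the sequence and not the binding of a factor.

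Levels between genes were compared per length, as the authors' FPKM. In NT cells ALDH3A2, the fatty aldehyde dehydrogenase, had the highest FPKM with 21.2 ± 0.505 (SD, n = 6). ALDH1B1 followed with 16.7 ± 1.23 FPKM and ALDH9A1 with 16.5 ± 0.857 FPKM, and the libraries of these neighbours overlapped. Next came ALDH3A1 with 8.91, ALDH4A1 with 5.98, ALDH7A1 with 3.60 and ALDH2 with 3.05 FPKM. The lowest were ALDH3B1 with 2.05, ALDH6A1 with 0.857 and ALDH3B2 with 0.510 FPKM. Apart from ALDH1B1 and ALDH9A1, no neighbours in this NT order had overlapping libraries.

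With resveratrol and with the combination ALDH9A1 took place 2 and ALDH1B1 place 3, and ALDH2 moved from place 7 to place 6, ahead of ALDH7A1. In resveratrol libraries ALDH3A1 and ALDH4A1 overlapped, and in combination libraries ALDH3A1 overlapped with both ALDH1B1 and ALDH4A1. The order depends on the length used. The FPKM imply 17914 bases for ALDH7A1, all annotated exons together, whereas its canonical transcript has 4765 bases. Per kilobase of canonical transcript ALDH7A1 had an NT normalized count of 118 and ALDH2 of 27.0, and ALDH9A1, ALDH3A1 and ALDH7A1 rose to places 2, 3 and 5. This length was added after the data were seen.

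**Figure D2:**
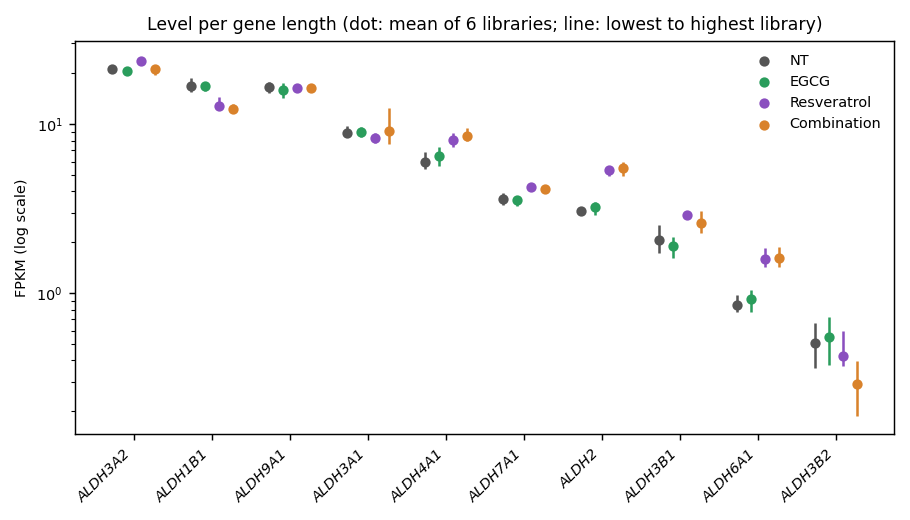
FPKM of each gene on a log axis, with a dot for the mean of 6 libraries and a line from the lowest to the highest library in NT, EGCG, resveratrol and combination groups. ALDH3A2 is highest in all groups, near 21.2 in NT, and ALDH3B2 is lowest, near 0.510.

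ALDH2 and ALDH1B1 are closely related enzymes of the mitochondrial matrix that both oxidize acetaldehyde, and ALDH2 also clears 4-hydroxynonenal. ALDH2 (ENSG00000111275, chr12:111766887-111817532, plus strand, GRCh38) had normalized counts of 248 to 268 in NT libraries (median 259) and 246 to 295 with EGCG (median 279.6). Counts were 419 to 475 with resveratrol (median 457) and 419 to 503 with the combination (median 477). Every library with resveratrol, alone or combined, lay above every library without it.

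ALDH2 thus rose 1.76-fold with resveratrol against NT (log2 fold change 0.82, SE 0.0513, adjusted p = 6.78e-16) and 1.81-fold with the combination (0.85, SE 0.0518, adjusted p = 1.78e-16). Against EGCG, the combination gave a log2 fold change of 0.76 (SE 0.0514, adjusted p = 5.85e-15). EGCG alone gave 0.10 on the log2 scale, with a 95% confidence interval of -0.02 to 0.21. Of the 50-base stretches of ALDH2 transcripts, 10.2% also occur in other genes, mostly in the overlapping ENSG00000257767, which had 0 counts in all libraries.

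ALDH1B1 (ENSG00000137124, chr9:38392702-38398661, plus strand) moved the opposite way. NT libraries held 418 to 508 normalized counts of it (median 443) and EGCG libraries 431 to 470.4 (median 452). The range was 332 to 394 with resveratrol (median 339) and 318 to 359.7 with the combination (median 329). No library with resveratrol reached the lowest library without it.

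The fall was by 0.38 on the log2 scale with resveratrol (0.768-fold, SE 0.0488, adjusted p = 3.24e-08) and by 0.44 with the combination (0.737-fold, SE 0.0498, adjusted p = 1.85e-09). EGCG alone gave 0.997-fold. The combination did not differ detectably from resveratrol for either gene: the log2 difference was 0.04 for ALDH2 (95% interval -0.06 to 0.13) and -0.06 for ALDH1B1 (-0.16 to 0.05).

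The ratio of ALDH2 to ALDH1B1 FPKM was 0.183 ± 0.0130 in NT and 0.194 ± 0.0167 with EGCG (SD, n = 6). It was 0.421 ± 0.0316 with resveratrol and 0.449 ± 0.0539 with the combination. ALDH1B1 remained the gene with the higher FPKM in all 4 groups, at 12.3 against 5.49 for ALDH2 in the combination.

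**Figure D3:**
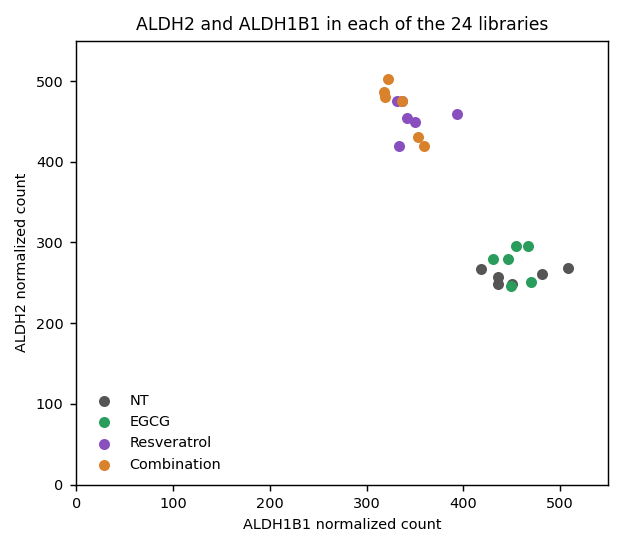
ALDH2 normalized count (vertical axis) against ALDH1B1 normalized count (horizontal axis), with 1 point for each of the 24 libraries, coloured by group. NT and EGCG points sit at ALDH2 counts of 246 to 295, and resveratrol and combination points sit higher and to the left, at 419 to 503.

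ALDH6A1, ALDH4A1 and ALDH7A1 act in the breakdown of amino acids. ALDH6A1, methylmalonate semialdehyde dehydrogenase of valine and thymine breakdown, showed the highest fold of the 10 genes. Its normalized counts (ENSG00000119711, chr14:74056847-74084492, minus strand) were 45.2 to 56.7 in NT (median 49.9) and 45.2 to 61.4 with EGCG (median 53.2). With resveratrol they were 82.6 to 108 (median 88.8), and with the combination 83.3 to 109 (median 93.0). The groups with and without resveratrol did not overlap.

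For ALDH6A1 this was 1.87-fold with resveratrol (log2 0.90, SE 0.0959) and 1.88-fold with the combination (log2 0.91, SE 0.0976), both with adjusted p = 5.20e-10. ALDH6A1 shares 12.2% of its 50-base stretches with other genes, most of them with BBOF1 on the other strand. The strand setting of the counting is not given in the sources used here. BBOF1 had 8.15 ± 2.54 normalized counts in NT and 11.5 ± 1.71 with resveratrol (SD, n = 6).

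ALDH4A1, which oxidizes pyrroline-5-carboxylate to glutamate in proline breakdown, is ENSG00000159423 at chr1:18871430-18902724 on the minus strand. It had 171 to 216 normalized counts in NT (median 188), 180.4 to 231 with EGCG (median 198), 231 to 282 with resveratrol (median 254) and 252 to 301 with the combination (median 266). Resveratrol and combination libraries lay above all NT libraries. Resveratrol raised it 1.35-fold (log2 0.43, SE 0.0669, adjusted p = 1.34e-06) and the combination 1.43-fold (log2 0.52, SE 0.0672, adjusted p = 3.68e-08).

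ALDH7A1, or antiquitin, oxidizes the semialdehyde of lysine breakdown, and its loss causes pyridoxine-dependent epilepsy. The gene is ENSG00000164904 at chr5:126531200-126595362 on the minus strand. Normalized counts were 520.4 to 610.1 in NT (median 554), 514 to 585 with EGCG (median 570.3), 636 to 693 with resveratrol (median 668) and 633 to 672 with the combination (median 646). The separation between libraries with and without resveratrol was complete but small.

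In fitted terms ALDH7A1 rose 1.19-fold with resveratrol (log2 0.25, SE 0.0390, adjusted p = 1.30e-06) and 1.16-fold with the combination (log2 0.21, SE 0.0395, adjusted p = 2.15e-05). It shares 2.82% of its 50-base stretches with other genes, chiefly the pseudogene ALDH7A1P1, which had 59.9 ± 4.59 normalized counts in NT and 66.7 ± 11.8 with resveratrol. EGCG alone left log2 fold changes of 0.11 for ALDH6A1, 0.10 for ALDH4A1 and 0.00 for ALDH7A1, none of them called.

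ALDH9A1 makes gamma-butyrobetaine, the precursor of carnitine, from its trimethylated aldehyde. This gene (ENSG00000143149, chr1:165662216-165698562, minus strand) had group medians between 464 and 477 normalized counts, and its 24 libraries ranged from 409 to 511. All groups overlapped. Its log2 fold change was -0.01 with resveratrol and -0.01 with the combination against NT, each with a 95% interval of -0.10 to 0.09. It was not called in any comparison. With scaling by the totals only, which moves the median of all genes by 0.09 with resveratrol, its log2 fold change was 0.08 and it was again not called in that comparison.

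The ALDH3 enzymes at membranes act on lipid-derived aldehydes. ALDH3A2 lies in the endoplasmic reticulum, oxidizes long-chain aldehydes from sphingolipid and fatty alcohol breakdown, and is mutated in Sjögren-Larsson syndrome. ALDH3A2 (ENSG00000072210, chr17:19648136-19685760, plus strand) had 1150.1 to 1226 normalized counts in NT (median 1201) and 1094 to 1212 with EGCG (median 1147). It had 1297 to 1376 with resveratrol (median 1332) and 1099 to 1253 with the combination (median 1208). Only its resveratrol libraries stood apart, above every library of the other 3 groups.

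Resveratrol alone raised ALDH3A2 1.12-fold (log2 0.16, SE 0.0326, adjusted p = 6.49e-05), while the combination gave a log2 fold change of 0.01 (95% interval -0.06 to 0.07). Between the combination and resveratrol the log2 difference was -0.16 (SE 0.0327, adjusted p = 0.00215), and all combination libraries lay below all resveratrol libraries. Within replicates 1 to 3 it was -0.17 and within replicates 4 to 6 it was -0.15, where it was not called (adjusted p = 0.112). The interaction was -0.11 (95% interval -0.20 to -0.02, adjusted p = 0.540), so a departure from adding the log2 changes was not called.

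ALDH3B1 and its neighbour in sequence ALDH3B2 are lipid-anchored enzymes that oxidize medium- and long-chain aldehydes. ALDH3B1 (ENSG00000006534, chr11:68008578-68029282, plus strand) had 100 to 146 normalized counts in NT (median 113), 92.8 to 125 with EGCG (median 111), 165 to 178 with resveratrol (median 167) and 131 to 177 with the combination (median 144). The resveratrol libraries lay above all NT libraries, while the combination overlapped with NT and with resveratrol. The rise was 1.43-fold with resveratrol (log2 0.51, SE 0.0854, adjusted p = 4.46e-06) and 1.27-fold with the combination (log2 0.34, SE 0.0884, adjusted p = 0.00119). Within replicates 4 to 6 the combination gave 0.23 on the log2 scale, which was not called (adjusted p = 0.128).

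ALDH3B2 (ENSG00000132746, chr11:67662155-67681224, minus strand) was the least abundant of the genes, with 5 to 23 raw counts in a library. Its normalized counts were 10.1 to 18.9 in NT (median 14.3), 10.7 to 20.6 with EGCG (median 15.6), 10.5 to 16.8 with resveratrol (median 11.4) and 5.27 to 11.3 with the combination (median 8.48). The combination had the lowest median, but its libraries overlapped with those of each other group. The combination fell by 0.79 on the log2 scale against NT (SE 0.238, adjusted p = 0.00494) and by 0.90 against EGCG (SE 0.234, adjusted p = 0.00150). In replicates 1 to 3 alone these were -0.66 and -0.61 and neither was called (adjusted p = 0.142 and 0.184). Combination libraries held 5 to 10 raw counts of the gene. In a fit of NT and combination libraries alone it did not pass the filter on low counts and was not tested. Its call against NT thus rests on a filter that it passed only with the other groups in the fit.

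Resveratrol alone gave -0.23 for ALDH3B2 (95% interval -0.66 to 0.20), and the combination against resveratrol gave -0.56 (adjusted p = 0.223). The interaction of -0.66 (adjusted p = 0.642) was not called. ALDH3B1 and ALDH3B2 share 0.516% and 0.929% of their 50-base stretches, so few reads can belong to both.

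ALDH3A1, a cytosolic enzyme abundant in cornea, oxidizes aromatic and medium-chain aldehydes and is a classical target of the aryl hydrocarbon receptor. Counts of this gene (ENSG00000108602, chr17:19737984-19748943, minus strand) were 286 to 330.4 in NT (median 296), 284 to 325 with EGCG (median 304), 261 to 299.7 with resveratrol (median 276) and 257 to 423 with the combination (median 291), on the normalized scale. All groups overlapped, and the highest value, 423, was combination replicate 3, the library that stood apart above. No comparison of ALDH3A1 was called.

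Its log2 fold change was -0.11 with resveratrol (95% interval -0.27 to 0.04, adjusted p = 0.232) and 0.04 with the combination (-0.11 to 0.20). Leaving out combination replicate 3 turned the latter to -0.08. It also changed the call for resveratrol, where the log2 fold change stayed at -0.11 and the adjusted p became 0.0695, because all groups share an estimate of the spread. The other genes listed with the receptor changed more. Of the 8 listed, 6 were tested. With resveratrol 3 rose and 3 fell, where 28.9% of all tested genes were called higher and 28.0% lower. With the combination 2 rose and 3 fell, against 29.9% in each direction. The list includes the receptor gene AHR itself and its partner ARNT, which rose by 0.58 and 0.21 with resveratrol, although ARNT libraries overlapped with those of NT. TIPARP fell by 0.27 with resveratrol. With the combination AHR rose by 0.66 and TIPARP fell by 0.33, while ARNT, at 0.12, was not called. CYP1A1 fell by 4.28 and CYP1B1 by 2.77 on the log2 scale with the combination, whereas NQO1 rose by 0.44.

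**Figure D4:**
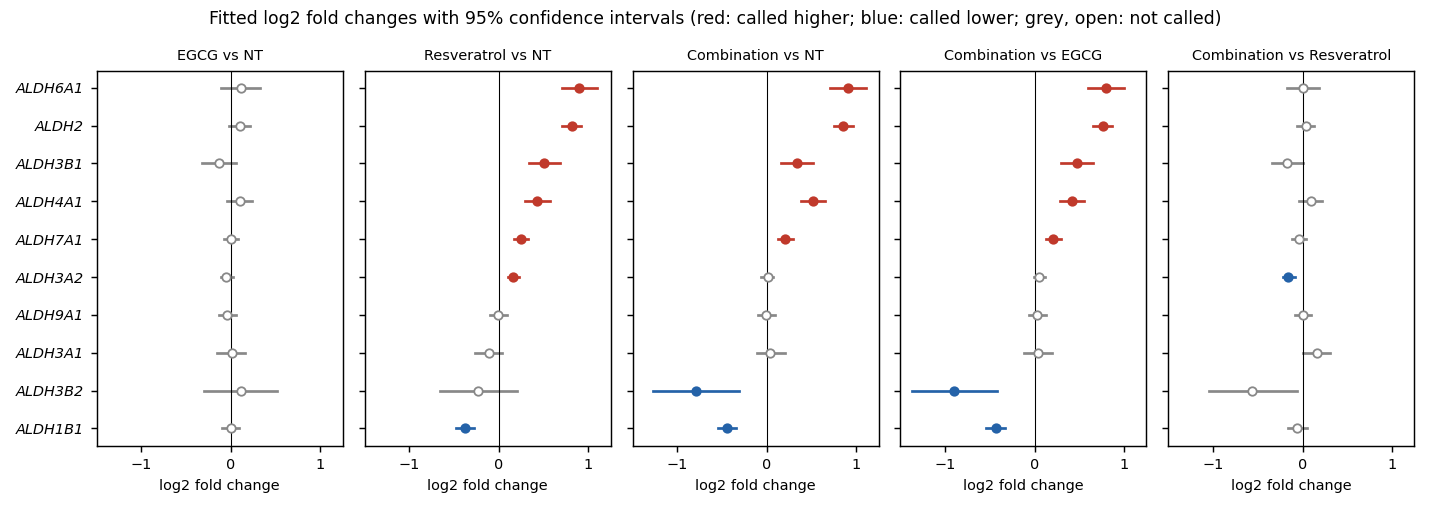
Fitted log2 fold change (horizontal axes) of the 10 genes (rows, ordered by the change with resveratrol) in 5 comparisons, with lines for 95% confidence intervals. Filled red and blue dots mark genes called higher and lower, and open grey dots genes not called. EGCG against NT has 0 filled dots, and the combination against resveratrol has 1, ALDH3A2.

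The comparison of resveratrol with NT and that of the combination with EGCG share no library, so they set libraries with resveratrol against libraries without it in separate sets. Both came from 1 fit to the 24 libraries, with a shared estimate of the spread. Of the 10 genes, 6 were called in both, and all 6 changed in the same direction. Over all tested genes 46.7% were called in both and 46.6% were called in both with the same direction. ALDH3A2 was called in the former and not in the latter, with 0.16 against 0.05 on the log2 scale, and ALDH3B2 in the latter and not in the former, with -0.23 against -0.90. The missing call of ALDH3A2 depended on the settings: it was called higher in the combination against EGCG with scaling by library size (0.13, adjusted p = 0.00179), with at least 10 counts in every library (0.08, adjusted p = 0.0374), and without NT replicate 5 (adjusted p = 0.0766), EGCG replicate 1 (0.0528) or combination replicate 5 (0.0488). Scaling by library size also called it in the combination against NT (0.09, adjusted p = 0.0262). The interaction tests above, which bear on these differences, called neither. In size, the absolute log2 fold changes had a median over the 10 genes of 0.32 with resveratrol and 0.39 with the combination, against 0.20 and 0.22 over all tested genes. With EGCG it was 0.07 against 0.06.

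Summed over the 10 genes, FPKM was 79.4 ± 1.97 in NT and 78.7 ± 0.965 in EGCG libraries (SD, n = 6). It was 83.7 ± 0.971 in resveratrol and 81.7 ± 2.32 in combination libraries. The retinoid genes ALDH1A1, ALDH1A2 and ALDH1A3 together had 18.6 ± 0.842 FPKM in NT and 14.1 ± 0.550 in EGCG libraries, but 4.75 ± 0.321 in resveratrol and 4.76 ± 0.266 in combination libraries. ALDH2 made up 3.84% of the sum of the 10 genes in NT and 6.73% with the combination, and ALDH1B1 went from 21.1% to 15.1%.

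Of the 9 other aldehyde dehydrogenase genes, 6 were tested and all 6 were called with resveratrol, 3 higher and 3 lower, where 28.9% of all tested genes were called higher and 28.0% lower. ALDH1A3 fell by 2.29 on the log2 scale with the combination (SE 0.0512, adjusted p = 4.73e-29). The mitochondrial folate enzyme ALDH1L2 rose by 1.22 (SE 0.0543, adjusted p = 3.19e-20), and ALDH18A1, which makes the proline precursor that ALDH4A1 consumes, fell by 0.21. With EGCG alone ALDH1A3 fell by 0.45 (adjusted p = 2.06e-09) and ALDH1L2 rose by 0.20 (adjusted p = 0.0989, just under the limit of 0.1), where 1.76% of all tested genes were called.

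Pathway partners were described from lists, by their log2 fold changes, and their counts are read against 28.9% higher and 28.0% lower over all tested genes with resveratrol and 29.9% for each direction with the combination. Around ALDH6A1, 10 genes of branched-chain amino acid breakdown were tested; 6 rose and 1 fell with resveratrol, and 3 rose and 2 fell with the combination. BCAT1, the cytosolic transaminase at the start of the pathway, fell by 0.39 with the combination, and BCKDHB, a subunit of the branched-chain ketoacid dehydrogenase, rose by 0.45. BCAT2, the mitochondrial transaminase, rose by 0.20. The list median was 0.12 with resveratrol and 0.05 with the combination, below the 0.90 and 0.91 of ALDH6A1, and over all tested genes the median was 0.00 and -0.00.

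Around ALDH4A1, 6 of 7 proline genes were tested, and 3 rose and 1 fell with either resveratrol treatment. OAT, which makes the same intermediate from ornithine, rose by 0.30 with the combination, and glutamate dehydrogenase GLUD1 fell by 0.11. For lysine breakdown 4 of 5 genes were tested, and 2 rose and 1 fell with either treatment. DHTKD1 rose by 0.26 and AASS, the first enzyme of the pathway, by 0.59, while AADAT fell by 0.39 with the combination. AASS was low, with means of 10.6 normalized counts in NT and 15.7 with the combination. For AASS and AADAT the combination libraries overlapped with those of NT.

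For carnitine synthesis 1 of 2 genes was tested, and TMLHE was not called, with 0.01 on the log2 scale in the combination. Of the 5 sphingolipid and fatty alcohol genes whose products reach ALDH3A2, 1 rose and 2 fell with resveratrol. Sphingosine phosphate lyase SGPL1, which releases hexadecenal, rose by 0.24 with resveratrol, by 0.30 with the combination and by 0.17 with EGCG (adjusted p = 0.00411 in edgeR's quasi-likelihood test). FAR1 fell by 0.14 with the combination, and FAR2, at -0.44, was not called.

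Among 18 alcohol dehydrogenases and other aldehyde-clearing enzymes, 11 were tested, of which 5 rose and 3 fell with resveratrol and 6 rose and 3 fell with the combination. PTGR1, a reductase of reactive lipid alkenals, rose by 0.76 with resveratrol and by 0.93 with the combination, and this difference of 0.17 was called (adjusted p = 0.0140). Aldose reductase AKR1B1 rose by 0.32 and aldehyde oxidase AOX1 fell by 0.82 with the combination. The median log2 fold change of this list with the combination was 0.15, and that of the 10 genes was 0.13.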

How the data were processed

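Total RNA of 686Tu cells was made into stranded mRNA libraries and sequenced as paired reads. Per the submitters' processing notes, the tools included bcl2fastq 2.17.1.14, Trimmomatic 0.36, FastQC 0.11.5, HISAT2 2.0.4, SAMtools 1.3.1 and DESeq2 1.20.0, with the build GRCh38. The counting program, its strand setting, the annotation release and the handling of shared reads are not given in the sources used here, so counts of overlapping or near-identical genes are uncertain.

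Raw counts were deposited by the authors as whole numbers for each gene and library. In all 24 libraries the deposited normalized counts (a signal) equalled the raw value over 1 factor for that library. The FPKM values deposited by the authors were checked to be these divided by a gene length and a common scale for all 15366 genes looked at, and 86.9% of the lengths they imply lie within 10% of the exonic length in GENCODE release 44. FPKM was used for levels between genes only. Library totals were 7034872 to 11735574 counts, which leaves genes such as ALDH3B2 with wide intervals; confidence intervals come from the fit over 6 libraries per group.

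The count model was fitted to the 24 libraries together in edgeR 4.0.16, R 4.3.3 (TMM, filterByExpr, quasi-likelihood test, group as the only term), and p-values were adjusted over all 15476 tested genes. Calls needed an adjusted p under 0.1 and p under 0.05, the limits of the study's methods. SEs were taken from the fitted log2 fold changes and their F statistics, and intervals are 95%. The alternatives were DESeq2 1.42.0, other scalings and filters, an adjusted p under 0.05 and fewer groups in the fit. A replicate block, a batch term, each batch alone and each library left out were also run. No label names a batch, and the word stands here for the division of replicates by number described below. A simulation of the combination against NT held 15322 genes, with 100 changed by 0.5 on the log2 scale and 100 by 1. Of these edgeR called 77 and 98, and it also called 13 unchanged genes. In the data 59.8% of all tested genes were called in this comparison, so the p-values were adjusted among many more changed genes. The simulated rates therefore do not carry over to the data.

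The members and the pathway lists were chosen with earlier results of these data known. Named beside the members were, from each list, the 3 genes with the smallest p in the combination against NT, and the genes most like the members with the highest and lowest change; 1 gene that this rule names is not reported here. The batches named above are replicates 1 to 3 and replicates 4 to 6. This division comes from an earlier look at the data and not from the labels. Promoter windows were matched by symbol to RefSeq, and shared 50-base stretches were counted in GENCODE transcripts. Pairs of libraries of a group were compared by a chi-square per gene, for which sampling noise alone gives about 1. It ran from 1.22 (combination replicates 5 and 6) to 5.96 (resveratrol replicates 3 and 4). All pairs thus lay above sampling noise, but the closest came near it.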

Additional observations from a re-analysis of the deposited data

Results flagged for a closer look

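In 4 of the 40 pairs of member and group, the highest of 6 libraries lay apart from the other 5, with a gap to the next library of more than 0.625 of the whole range, where chance gives about 1 group in 20. ALDH1B1 had 394 normalized counts in resveratrol replicate 3, with 349.6 in the next library, and ALDH3A1 had 423 in combination replicate 3, with 313 in the next. ALDH3B1 had 178 in resveratrol replicate 2, with 169 in the next. ALDH3B2 had 16.8 in resveratrol replicate 4, with 11.8 in the next. The 394 of ALDH1B1 still lay below the lowest NT library, 418. Combination replicate 3 is also the library that stood apart over all tested genes.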

How the results depend on the processing

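The number of members called was within 1.5 times its value in every comparison under the alternatives run, with 1 exception. In replicates 4 to 6 alone, the combination against resveratrol called 0 members, since ALDH3A2 (-0.15 on the log2 scale) missed the limit. Leaving out each library in turn gave 7 to 8 calls for resveratrol, 7 to 7 for the combination, 1 to 1 for the combination against resveratrol, 7 to 8 for the combination against EGCG, and 0 to 0 for EGCG and the interaction. With library size alone the combination called 8, with ALDH3A2 added, and, against EGCG, 9, with ALDH3A2 and ALDH9A1 added. With at least 10 counts in every library ALDH3B2 was not tested, and the combination called 6. A fit of NT and combination libraries alone also left ALDH3B2 untested and called 6. Over all genes, the interaction called 41 with edgeR, 69 with DESeq2, 79 with a batch term and 85 with the replicate block. The batch term stands for the division of replicates by number, which no label records as a batch.

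The replicate block called 0 members with EGCG, 7 with resveratrol, 7 with the combination, 1 for the combination against resveratrol, 7 against EGCG and 0 for the interaction, and it changed no call. Deviations of same-numbered libraries correlated between -0.00252 and 0.131, and at most 3 of 6 libraries in a comparison correlated best with their own number, so the numbers were not taken to pair single libraries. Numbers 1 to 3 and 4 to 6 do mark sets that differ in mitochondrial share in all 4 groups.

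Log2 fold changes near 0 that were not called changed sign under some settings. In replicates 1 to 3 alone, EGCG gave -0.02 for ALDH3A1 and -0.05 for ALDH3B2, ALDH9A1 gave 0.08 with resveratrol and 0.04 with the combination, ALDH6A1 gave -0.17 for the combination against resveratrol, and the interaction was 0.02 for ALDH3B1, 0.10 for ALDH4A1 and -0.02 for ALDH9A1. In replicates 4 to 6 alone, ALDH6A1 gave -0.01 with EGCG, ALDH3A1 gave -0.09 with the combination, -0.03 against resveratrol and -0.13 against EGCG, ALDH9A1 gave -0.01 against EGCG, and the interaction was -0.07 for ALDH3A1 and 0.23 for ALDH6A1. For ALDH9A1, library size alone gave 0.08 with resveratrol and 0.08 with the combination, the filter of 10 counts gave 0.02 and 0.02, and a fit of NT and combination libraries gave 0.01. With each library left out, the ranges that crossed 0 included -0.01 to 0.04 for ALDH3A1 with EGCG, -0.03 to 0.03 for ALDH9A1 with resveratrol and -0.03 to 0.03 with the combination, -0.08 to 0.09 for ALDH3A1 and -0.01 to 0.03 for ALDH3A2 with the combination, -0.04 to 0.05 for ALDH6A1 against resveratrol, -0.09 to 0.08 for ALDH3A1 against EGCG, and -0.05 to 0.02 for the ALDH4A1 interaction. Among values of 0.00 to 2 decimals, they were -0.03 to 0.03 for ALDH1B1 and -0.02 to 0.03 for ALDH7A1 with EGCG, and -0.02 to 0.01 for ALDH9A1 against resveratrol. ALDH1B1 with EGCG gave -0.08 in replicates 1 to 3 and 0.08 in 4 to 6. The cause was not tested.

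The place of the genes in the order of levels depends on the gene length. The limits are the unstated solvent in NT cells, replicates of unstated origin, 1 cell line at 1 dose and time, and few reads for ALDH3B2.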

Other observations

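The genes whose log2 CPM followed ALDH6A1 most closely over the 24 libraries were CSRNP2 (Pearson r 0.965), FECH, the last enzyme of heme synthesis (0.964), and MR1, which presents microbial metabolites to T cells (0.961). Their log2 fold changes with the combination were 0.92, 0.78 and 1.16. Those closest to ALDH3B2, the member with the lowest change, were TMEM117 (0.817), THOC2 (0.811) and R3HDM1 (0.801), with log2 fold changes of -0.94, -0.36 and -0.24. These values describe 4 groups of libraries that differ in treatment and share the cell line, and many genes moved with resveratrol.

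Among the members themselves, over the same 24 libraries, ALDH2 had r = 0.95 with ALDH6A1, 0.89 with ALDH7A1 and 0.87 with ALDH4A1, and -0.93 with ALDH1B1. ALDH9A1 had r between -0.15 and 0.20 with each other member.

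For ALDH6A1 the combination against resveratrol gave -0.17 on the log2 scale with replicates 1 to 3 alone, and 0.22 with replicates 4 to 6 alone, with neither called. For ALDH4A1 the change with resveratrol came to 0.29 for replicates 1 to 3, but 0.58 for replicates 4 to 6, and it was called in both. The difference between these sets of replicates was not tested.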
